A study of Homo sapiens with 10 samples.

Results

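The TRIM (tripartite motif) family was followed in H441, an established human lung adenocarcinoma cell line, after removal or addition of TET1, a dioxygenase that starts the removal of DNA methylation. Members were the genes of the deposited count table whose symbol is TRIM followed by digits only, with 10 or more reads in at least 2 of the 10 libraries. Of 67 such symbols among the 62709 genes with values, 41 met the rule, and all 41 were among the 15832 genes tested. They lay on 15 chromosomes, 10 of them on chromosome 11 and 6 on chromosome 1. TRIM31 reached the minimum only through the TET1-overexpressing libraries, so a difference in that gene was built into its selection.

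RNA was sequenced from 4 groups of H441 cells, all cultured in RPMI medium with 10% serum. WT (n = 3) was the wild-type line, and KO (n = 3) was derived from it by CRISPR-Cas9 targeting of TET1. OE (n = 2, numbered 1 and 2) was H441 that had received a full-length human TET1 plasmid by transient transfection. Lipo (n = 2, numbered 2 and 3) was labelled wild type and untreated, and its title word is not explained in the labels. The sources used here do not say whether KO was 1 clone or whether the replicates of a group were grown apart, so p-values measure only the spread between these libraries. Lipo was used as the control of OE, with WT tried in its place.

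TRIM proteins carry a RING domain, 1 or more B-boxes and a coiled coil, and the RING makes most of them E3 ubiquitin ligases. Their C-terminal domain sets the target and divides the family: many carry a PRYSPRY domain, some of which bind viral proteins or innate immune sensors, and others carry NHL repeats, a bromodomain or a COS box. Several antiviral members are textbook interferon-stimulated genes, and TRIM28 is the corepressor through which KRAB zinc finger proteins silence retroelements.

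Total counts per library ranged from 20994462 to 25981097. TET1 had 2, 7 and 0 reads in WT, 4, 0 and 8 in KO, 0 and 1 in Lipo, and 17883 and 20805 in OE, so its transcript marked the OE libraries but was too low in WT for its level to check the knockout. The 11 lung epithelial markers were all detected, with a summed level of 11752 to 15833 CPM (reads per 1000000 of the library size, adjusted by TMM, edgeR's correction for composition), although SFTPC was at or near 0. Single markers of this sum differed by group. In the order WT, KO, Lipo and OE, mean CPM was 195, 49.5, 75.9 and 29.7 for SFTPB and 4047, 4212, 2234 and 1914 for SFTPA1. It was 1337, 474, 1299 and 1528 for SLC34A2, and CLDN4 went up in Lipo and OE, at 224, 178, 377 and 445. The leukocyte markers summed to 1.08 to 3.40 CPM, and the 4 endothelial markers to 82.6 to 117 CPM, almost all of it KDR. The 6 fibroblast markers summed to 177 to 289 CPM in WT, 70.9 to 77.7 in KO, 170 to 183 in Lipo and 343 to 351 in OE, with DCN and PDGFRB at 0 in every library and COL1A2 and COL3A1 at or near 0. Almost all of it was COL1A1, at 156 to 272 CPM in WT, 56.9 to 68.7 in KO, 150 to 159 in Lipo and 302 to 313 in OE, so it rests on 1 gene. This sum moved with the groups compared below, and its part in the results was not tested.

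The promoters of the members that changed most with TET1 overexpression come first, because shared letters at their start sites can be read beside the values that follow. Windows ran from 250 bases before to 50 bases after the start site, from RefSeq on GRCh38.p14, and 30 of the 41 members had 1 or more, giving 43 windows. Of the 6 members with the largest log2 change among those called in OE against Lipo, 4 had a window, and TRIM22 and TRIM29 are named only. Each is printed 5′ to 3′ on the strand of its gene, with any match to GAAANNGAA on either strand in capitals, letters found in the element bound by interferon-activated transcription factors.
TRIM21, chr11:4393653-4393952, minus strand: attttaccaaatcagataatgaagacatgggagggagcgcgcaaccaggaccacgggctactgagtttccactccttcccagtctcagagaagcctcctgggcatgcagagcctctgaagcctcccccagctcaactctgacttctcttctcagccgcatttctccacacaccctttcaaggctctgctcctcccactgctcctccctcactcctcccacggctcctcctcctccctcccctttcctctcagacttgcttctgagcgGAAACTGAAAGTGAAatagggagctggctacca
TRIM14, chr9:98119173-98119472, minus strand: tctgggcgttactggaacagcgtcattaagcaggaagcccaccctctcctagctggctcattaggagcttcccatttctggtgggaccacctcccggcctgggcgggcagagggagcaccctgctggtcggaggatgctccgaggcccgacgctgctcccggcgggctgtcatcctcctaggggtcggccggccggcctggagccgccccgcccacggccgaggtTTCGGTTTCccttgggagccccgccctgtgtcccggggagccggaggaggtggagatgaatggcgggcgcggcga
TRIM38, chr6:25962552-25962851, plus strand: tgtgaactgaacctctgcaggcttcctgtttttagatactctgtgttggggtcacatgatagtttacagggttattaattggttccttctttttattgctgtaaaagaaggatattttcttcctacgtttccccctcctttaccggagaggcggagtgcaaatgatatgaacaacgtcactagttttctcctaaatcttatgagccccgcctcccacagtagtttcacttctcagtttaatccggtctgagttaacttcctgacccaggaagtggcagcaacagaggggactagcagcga
TRIM31, chr6:30113041-30113340, minus strand: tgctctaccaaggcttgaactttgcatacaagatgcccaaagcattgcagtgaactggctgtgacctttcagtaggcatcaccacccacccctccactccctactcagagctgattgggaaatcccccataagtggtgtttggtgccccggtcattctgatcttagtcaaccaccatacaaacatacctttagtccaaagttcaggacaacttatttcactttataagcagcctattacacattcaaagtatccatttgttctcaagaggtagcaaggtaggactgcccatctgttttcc

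The TRIM21 window held 2 overlapping matches, GAAACTGAA and GAAAGTGAA, starting 17 and 23 bases after the start site. The TRIM14 window held TTCGGTTTC, a match on the complementary strand, 25 bases before the start. TRIM38 and TRIM31 held no match in these windows. Among the other members called higher in OE, TRIM5 held TTCACTTTC 26 bases before its start and TRIM16 held GAAATAGAA 80 bases before, and TRIM25 and TRIM56 held none. The motif was thus in 4 of 8 windows of the members called higher in OE (50%) and in 3 of the 35 other member windows (8.57%), those of TRIM2, TRIM34 and TRIM44. Counted by gene, 4 of 8 called members and 3 of 22 others (13.6%) had a match, against 9.86% of the 27303 genes with a window. Over all 35114 RefSeq windows of this length the share was 8.11%. Windows of 1 gene can overlap, and TRIM2 had 6. TTCNNNGAA, the letters recognised by STAT dimers, was in 1 of the 8 windows (12.5%), in 5 of the 35 (14.3%) and in 7.66% of all windows, with no overlap between the motifs in any member window. The median number of CpG dinucleotides was 6.5 in the 8 windows, 16 in the 35 and 14 over all windows. These matches are letters in a window and were not measured as bound sites.

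Compared per kilobase of exon, TRIM28 stood first in every group, at 58.9 CPM per kb in WT, 65.4 in KO, 65.4 in Lipo and 77.3 in OE. Over all 10 libraries it was followed by TRIM25, TRIM8, TRIM21 and TRIM47. TRIM21, the cytosolic antibody receptor that sends antibody-coated particles to the proteasome, ranked 8 of 41 in WT and in Lipo, 5 in KO and 2 in OE, where it reached 56.1 CPM per kb against 9.83 in Lipo. TRIM22 ranked 40 in WT and Lipo and 22 in OE. TRIM9 and TRIM17 were among the lowest over all libraries. TRIM47, a PRYSPRY member, shared 51.5% of its exon length with a transcript on the other strand, so its level carries that uncertainty. Summed over the 41 members, the level was 1599 to 1838 CPM in the 8 other libraries and 2715 and 2791 CPM in OE 1 and OE 2. In bulk RNA a change in the share of cells that express a gene and a change in RNA per cell cannot be told apart.

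**Figure D1:**
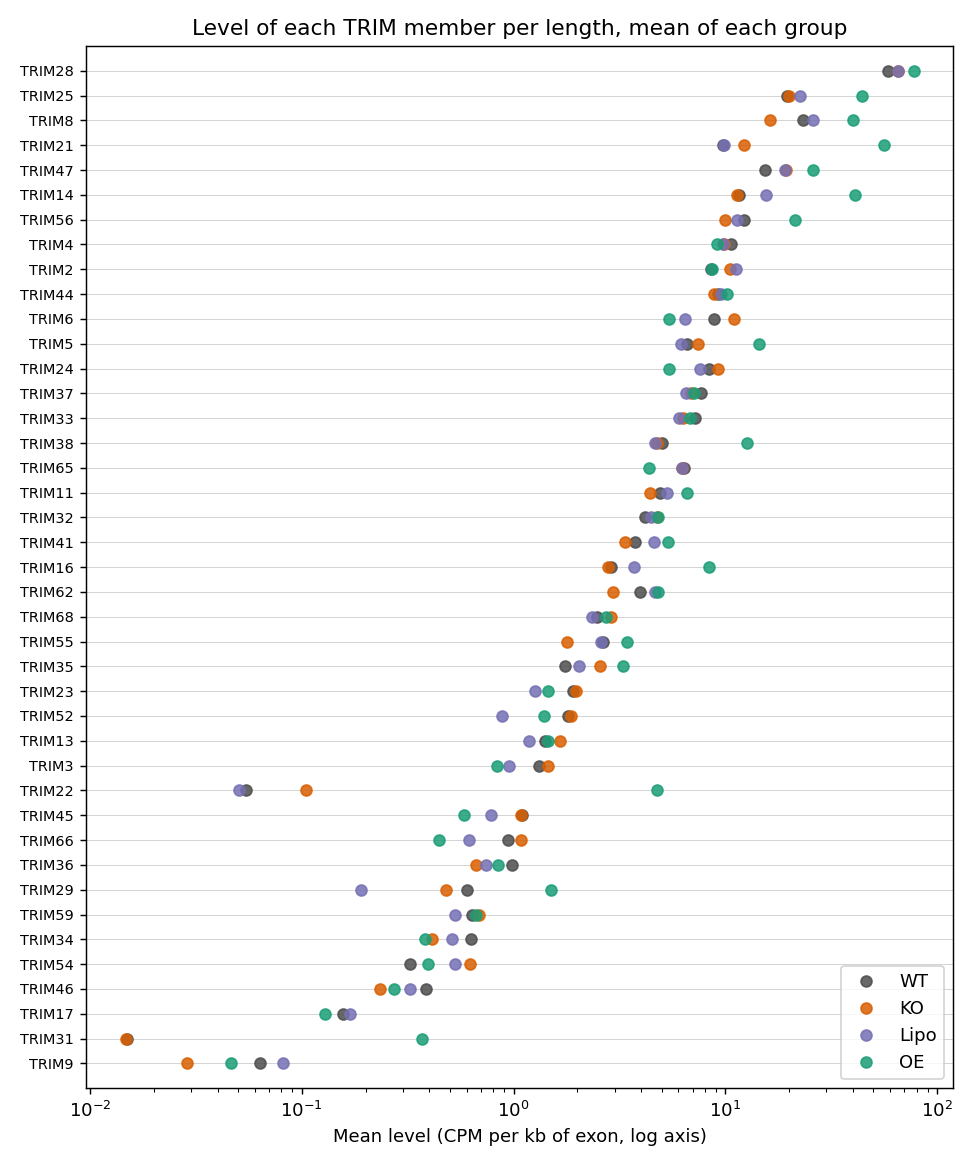
Mean level of each of the 41 TRIM members in CPM per kilobase of exon, by group, on a log axis. TRIM28 is highest in all 4 groups and TRIM22 moves from rank 40 in Lipo to rank 22 in OE; the means that are 0, TRIM17 in KO and TRIM31 in Lipo, are not drawn.

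The comparison of OE with Lipo asked which members differed in cells given the TET1 plasmid. Lipo was labelled untreated and no group used here is labelled as carrying an empty plasmid, so TET1 and the transfection itself cannot be told apart. There 10 members were higher and 0 lower (edgeR's quasi-likelihood test, Benjamini-Hochberg adjusted p under 0.05 over all 15832 genes), against 6.79% of all tested genes called higher and 5.53% called lower. The 10 were TRIM5, TRIM14, TRIM16, TRIM21, TRIM22, TRIM25, TRIM29, TRIM31, TRIM38 and TRIM56. They made up 24.4% of the members, with 12.3% of all tested genes called in either direction. Leaving TRIM31 aside because of how it entered the list, 9 of the other 40 were called. At an unadjusted p under 0.05, 13 were higher and 2 lower, beside 2131 higher and 2015 lower of all 15832 tested genes. DESeq2 called 10 higher and 0 lower, with 2282 genes called in all. The median log2 change was 0.22 over the members and -0.01 over all tested genes. OE and Lipo values did not overlap for the 10, for 19 of the other 31 members and for 65.6% of all tested genes. With only OE and Lipo in the fit 20 members were called, 17 higher and 3 lower, and with WT as the control 19 were, 14 higher and 5 lower, and both sets held all 10. The 12.3% belongs to the main fit. The share of all genes called in these 2 settings is not given here, so the larger counts are not read as a wider response of the family.

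The interferon-linked and antiviral members supplied 7 of the 10. Of 10 listed, 9 were tested, 7 were higher and TRIM6 and TRIM34 did not pass, with a list median of 1.22 on the log2 scale. The share called was 77.8%, against 6.79% of all tested genes called higher, and the list was chosen with earlier results of these data known. TRIM22, a PRYSPRY ligase that restricts several viruses, had 8 and 6 reads in Lipo and 562 and 639 in OE. It also had 9, 4 and 10 reads in WT and 24, 7 and 13 in KO, so only the OE libraries were high. Its mean rose from 0.303 ± 0.0421 CPM in Lipo to 28.5 ± 1.19 in OE (SD, n = 2 each), a fitted change of 6.53 on the log2 scale (SE 0.48, 92.2-fold, edgeR adjusted p = 2.59e-07).

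TRIM21 was at 19.1 and 18.9 CPM in Lipo and 107 and 109 in OE. WT lay at 20.5, 17.3 and 18.6 CPM and KO at 23.2, 20.1 and 27.7, all below both OE libraries. The rise was 5.71-fold (log2 2.51, SE 0.18, edgeR adjusted p = 1.62e-07). TRIM21 lies at chr11:4384897-4393696 and TRIM22 at chr11:5689689-5737089, the latter inside the span of TRIM5 (chr11:5663557-5938619) on the opposite strand (GRCh38).

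TRIM38, a ligase that tunes Toll-like receptor and RNA sensing signals, was at 43.1 and 44.3 CPM in Lipo and 117 and 121 in OE, a 2.73-fold rise (log2 1.45, SE 0.14, edgeR adjusted p = 6.07e-06). It is on chromosome 6 at chr6:25962802-25991226. TRIM14, a mitochondrial adaptor of RNA sensing with no RING, was at 84.9 and 85.7 CPM in Lipo and 226 and 222 in OE. Its WT values of 56.2, 66.0 and 67.4 CPM lay below both Lipo values. The OE rise was 2.63-fold (log2 1.39, SE 0.15, edgeR adjusted p = 1.89e-05). For TRIM38 and TRIM14 the 8 libraries outside OE were all below the lower OE value.

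TRIM5, whose PRYSPRY domain binds retroviral capsids, was at 28.1 and 31.2 CPM in Lipo and 67.9 and 70.1 in OE, with WT at 31.7, 35.6 and 27.2. It rose 2.33-fold (log2 1.22, SE 0.19, edgeR adjusted p = 5.94e-04). TRIM25, the ligase that modifies the RNA sensor RIG-I, was at 214 and 214 CPM in Lipo and 419 and 425 in OE, a 1.97-fold rise (log2 0.98, SE 0.14, edgeR adjusted p = 2.72e-04). TRIM56, an antiviral ligase of the STING pathway, was at 131 and 122 CPM in Lipo and 229 and 249.9 in OE, a 1.90-fold rise (log2 0.92, SE 0.15, edgeR adjusted p = 7.42e-04). The folds of TRIM5, TRIM25 and TRIM56 were smaller than those of TRIM21 and TRIM22. Per kilobase of exon in Lipo, TRIM5 was at 6.17 CPM, TRIM56 at 11.3 and TRIM25 at 22.6, with TRIM21 at 9.83 and TRIM22 at 0.0504.

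TRIM34 and TRIM6, neighbours of TRIM5 on chromosome 11, gave log2 changes of -0.42 (edgeR adjusted p = 0.633) and -0.24 (adjusted p = 0.563). TRIM6 was called lower in OE in 1 of 20 alternatives, with WT as the control. A readthrough transcript on the same strand shares 83% of the exon length of TRIM34 and 29.3% of that of TRIM6, so reads between these 3 could be divided by the counting.

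**Figure D2:**
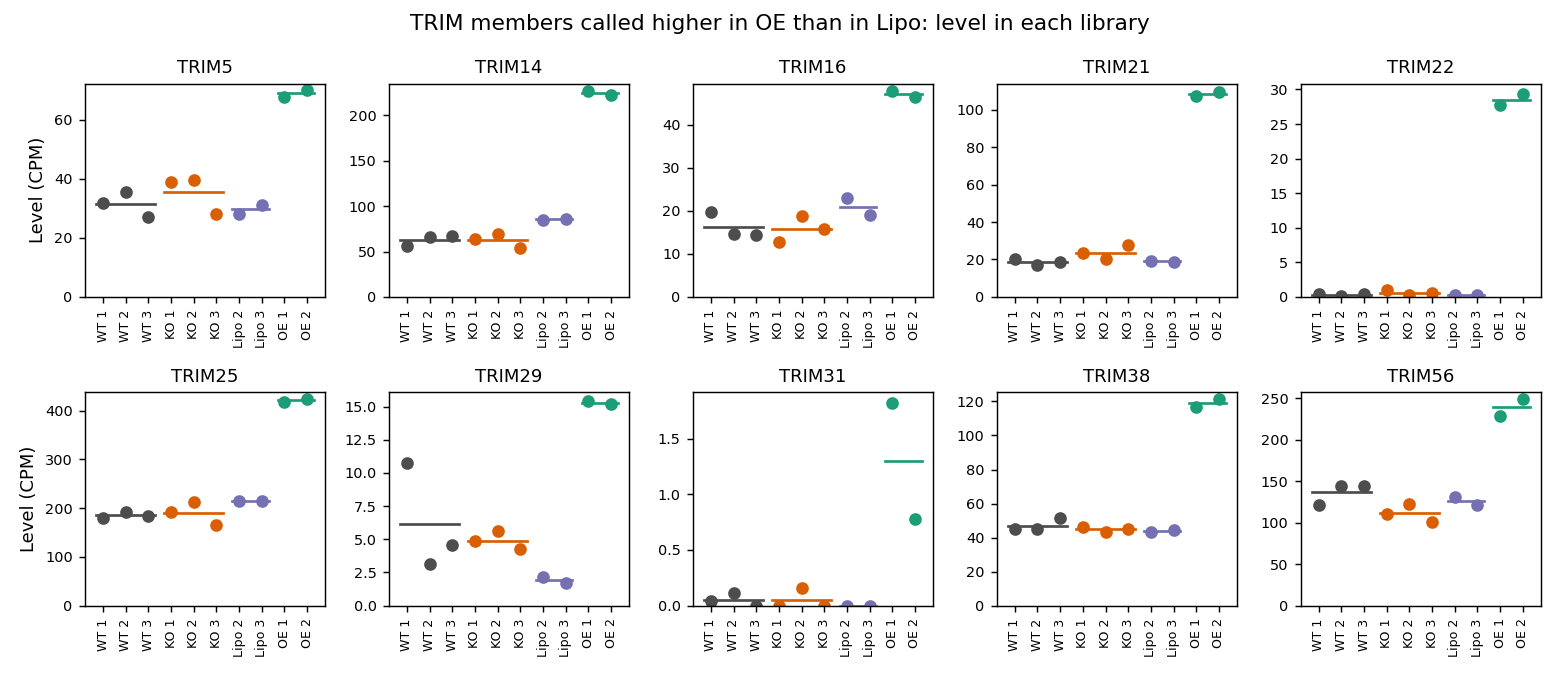
CPM in each of the 10 libraries, coloured by group, for the 10 TRIM members called higher in OE than in Lipo, on linear axes that start at 0, with 1 point per library and a line at each group mean. In every panel both OE points lie above both Lipo points, as for TRIM22 at 27.7 and 29.4 CPM against 0.333 and 0.273.

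Members without a RING domain gave 3 of the 10 calls, TRIM14, TRIM16 and TRIM29, of 5 listed and tested (list median 1.17). The share called was 60.0%, against 6.79% of all tested genes called higher, and it rests on 5 genes. TRIM14 is also among the antiviral calls above, so the 2 lists overlap, and this list too was chosen with earlier results of these data known. TRIM29, found in squamous and basal epithelia, was at 2.16 and 1.73 CPM in Lipo and 15.4 and 15.2 in OE, with WT at 10.7, 3.17 and 4.56. It rose 7.81-fold over Lipo (log2 2.96, SE 0.45, edgeR adjusted p = 4.61e-04). With WT as the control its log2 change was 1.32 (adjusted p = 0.0157), and Lipo lay below every WT library. TRIM16, which takes part in autophagy of damaged organelles, was at 22.9 and 19.0 CPM in Lipo and 47.8 and 46.3 in OE, a 2.25-fold rise (log2 1.17, SE 0.21, edgeR adjusted p = 0.00229). Its call was lost without Lipo 3 (adjusted p = 0.0557), and its reads may be shared with its near copy TRIM16L and with a readthrough transcript covering 23.5% of its exons. TRIM44 and TRIM66, the remaining RING-less members, did not pass.

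TRIM31, a ligase of the antiviral adaptor MAVS, had 0 reads in both Lipo libraries and 37 and 17 in OE. Across the other libraries it had 1, 3 and 0 reads in WT and 0, 4 and 0 in KO. Its pooled OE level was 19.7-fold above a floor of 3 counts over the Lipo group (edgeR adjusted p = 0.0138), without regard to the spread in OE. Because TRIM31 met the member rule only through OE, this call is listed but is not evidence of a change. The call was lost without Lipo 2, Lipo 3 or OE 1 (adjusted p = 0.118, 0.123 and 0.121). It lies at chr6:30102897-30113106, in a stretch of chromosome 6 with few reads that is described further on.

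TRIM8, a RING and B-box ligase that acts in cytokine and NF-kB signalling, was at 251 and 245 CPM in Lipo and 378 and 387 in OE and did not pass (log2 0.63, 95% interval 0.11 to 1.14, edgeR adjusted p = 0.109). It was called higher in 7 of 20 alternatives, among them no filter on low counts, only the groups compared, WT as control, and the fits without WT 1 or KO 1. Its 3 WT values, 159.7, 244 and 265 CPM, were widely spread. None of the 9 tested members of the other PRYSPRY group, the 5 COS-box microtubule members, the 3 NHL-repeat members, the 2 transmembrane members or the 3 with other C-terminal domains passed, with list medians of 0.22, -0.26, -0.19, 0.31 and 0.12. DESeq2 added none. With only OE and Lipo in the fit TRIM11, TRIM35, TRIM41 and TRIM47 were called higher and TRIM2 and TRIM65 lower, and with WT as control TRIM35, TRIM41 and TRIM47 were called higher and TRIM45 and TRIM65 lower. At an unadjusted p under 0.05 only the other PRYSPRY group of these had members, 1 higher and 1 lower.

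None of the 4 corepressor members was called in OE, KO or Lipo by the edgeR fit of all 10 libraries or by DESeq2, and at an unadjusted p under 0.05 1 was lower in OE, 0 in KO and 1 in Lipo. TRIM28 was at 268 and 259 CPM in Lipo and 302 and 321 in OE (log2 0.24, 95% interval -0.19 to 0.67, edgeR adjusted p = 0.495). TRIM24, a bromodomain protein that also acts on p53, was at 67.9 and 71.7 CPM in Lipo and 48.1 and 51.7 in OE (log2 -0.49, interval -0.90 to -0.07, adjusted p = 0.123). TRIM33, a regulator of SMAD4, gave 0.16 (interval -0.25 to 0.58, adjusted p = 0.642). Other settings did call corepressors in OE: TRIM24 lower in 5 of 20 alternatives, TRIM28 higher in 2 (only the groups compared, and a replicate block over all 10 libraries), and TRIM66 lower with WT as control.

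**Figure D3:**
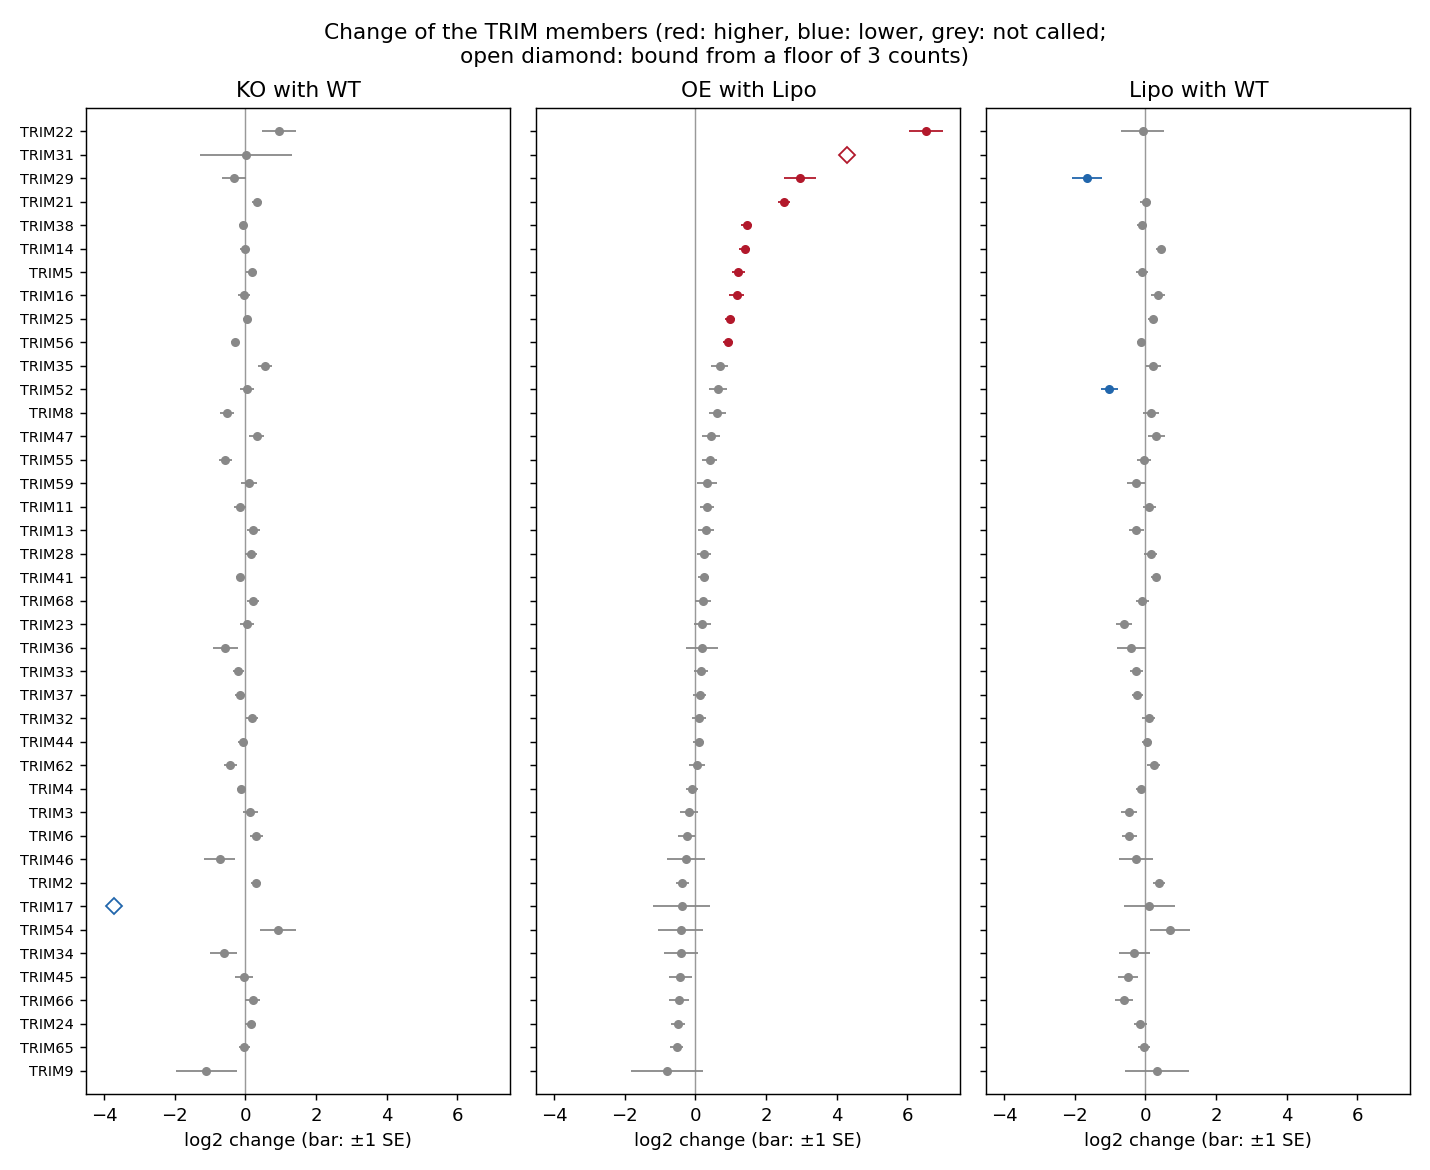
Fitted log2 change of each of the 41 members in KO with WT, OE with Lipo and Lipo with WT, with bars of 1 standard error, red for called higher and blue for called lower at adjusted p under 0.05, and grey for not called. There are 10 red members in OE with Lipo, 1 blue in KO with WT and 2 blue in Lipo with WT; open diamonds are bounds for genes with no read in 1 group, and TRIM31 is not drawn for Lipo with WT.

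KO with WT asked which members differed in the knockout line, and only TRIM17 passed, lower in KO. The call covered 2.44% of the members, against 7.45% of all tested genes called lower, 5.13% called higher and 12.6% in either direction. No member was higher by edgeR or by DESeq2, with 2 higher and 5 lower at an unadjusted p under 0.05. Of all 15832 tested genes 1949 were higher and 2255 lower at that unadjusted threshold. TRIM17, a PRYSPRY ligase linked to neuronal cell death, had 10, 16 and 14 reads in WT and 0, 0 and 0 in KO, with 8 and 19 in Lipo and 12 and 7 in OE. KO was thus the only group with no read. Its pooled WT level was 13.2-fold above a floor of 3 counts over KO (WT mean 0.552 ± 0.104 CPM, SD, n = 3, edgeR adjusted p = 0.00383). A stricter filter on low counts removed TRIM17, and in the 19 other settings it stayed called. TRIM17 lies at chr1:228407940-228416861.

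TRIM55, a muscle COS-box protein, was at 8.18, 8.29 and 7.89 CPM in WT and 5.82, 5.78 and 4.89 in KO and missed the threshold (log2 -0.56, edgeR adjusted p = 0.0544). It was called lower in 5 of 20 alternatives: DESeq2, the stricter filter, all 5 wild-type controls and both fits with a replicate block. TRIM8 gave -0.52 (adjusted p = 0.106) and was called lower in 5 of 20 alternatives: no filter, without WT 1, without KO 3 and both fits with a replicate block. TRIM28 was at 201, 255 and 256 CPM in WT and 191, 268 and 333 in KO, values that overlap (log2 0.15, interval -0.20 to 0.50, adjusted p = 0.623). TRIM21, TRIM22 and TRIM56 gave log2 changes of 0.33, 0.94 and -0.29 in KO (adjusted p = 0.141, 0.224 and 0.128). TRIM5, TRIM25, TRIM14 and TRIM38 gave 0.18, 0.04, -0.02 and -0.07, and none passed. Without WT 1 the count of members called in KO was 5, 1 higher and 4 lower (TRIM6, TRIM8, TRIM17, TRIM56 and TRIM62), and without KO 1 and without KO 3 it was 2 and 3.

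Whether a member differed between the KO and OE comparisons was tested directly, as its log2 change in KO over WT minus that in OE over Lipo. At an adjusted p under 0.05 this difference was called below 0 for 12 members and above 0 for 0, 29.3% of the family. Of all tested genes 9.47% were called below 0, 7.16% above 0 and 16.6% in either direction. Without regard to p, the difference was below 0 for 32 members and above 0 for 9, and over all tested genes below 0 for 7999 and above 0 for 7833. The 12 were TRIM5, TRIM8, TRIM14, TRIM16, TRIM17, TRIM21, TRIM22, TRIM25, TRIM29, TRIM38, TRIM55 and TRIM56. At an unadjusted p under 0.05, 2 members were above 0 and 13 below, beside 2266 above and 2573 below of all 15832 tested genes. DESeq2 called 1 above 0 (TRIM2) and 13 below, with 2974 genes called in all. For TRIM21 the difference was -2.18 on the log2 scale (SE 0.22, edgeR adjusted p = 8.28e-06), for TRIM22 -5.58 (adjusted p = 8.95e-05) and for TRIM38 -1.52 (adjusted p = 4.00e-05). TRIM8, called in neither comparison, differed between them by -1.14 (adjusted p = 0.0218), with -0.52 in KO and 0.63 in OE. That call was lost without WT 3, either Lipo library or either OE library, and the TRIM55 call (-0.97, adjusted p = 0.0294) was lost in 7 settings. The TRIM17 call was lost without Lipo 2 or OE 1, the TRIM5 call without Lipo 2 and the TRIM16 call without Lipo 3.

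Lipo with WT compared cells that carry the same wild-type label, and it shares libraries with both comparisons above. TRIM29 and TRIM52 were lower in Lipo and no member was higher, 4.88% of the family, with 2.38% of all tested genes called lower, 1.32% higher and 3.70% in either direction. At an unadjusted p under 0.05, 3 were higher and 4 lower, beside 1312 higher and 1650 lower of all 15832 tested genes. DESeq2 called TRIM14 higher, with 992 genes called in all. TRIM52, a short RING and B-box protein, was at 11.1, 11.5 and 12.8 CPM in WT and 6.24 and 5.38 in Lipo, 2.03-fold lower (log2 -1.02, SE 0.23, edgeR adjusted p = 0.0252). Its OE values were apart, at 11.3 and 6.85 CPM. A transcript on the other strand overlaps 28.5% of its exons. TRIM29 was 3.14-fold lower in Lipo (log2 -1.65, SE 0.42, adjusted p = 0.0422), with WT 1 above the other WT libraries. Without WT 1 its log2 change was -0.98 (adjusted p = 0.0796), and the call was lost in 6 other settings. The TRIM52 call was lost without WT 2, WT 3, Lipo 2 or Lipo 3. No member was called by edgeR without Lipo 2 or without Lipo 3, with 1 higher and 3 lower at an unadjusted p under 0.05 in each, and 1 was called without any 1 of WT 1, WT 2, WT 3, KO 2, OE 1 and OE 2.

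Family genes under other symbols were counted apart. PML, the TRIM protein that scaffolds nuclear bodies, rose from 57.4 ± 2.38 CPM in Lipo to 243 ± 2.43 in OE (log2 2.08, SE 0.17, edgeR adjusted p = 8.90e-07). It also rose in KO, from 48.8 ± 2.57 to 72.8 ± 13.8 CPM (SD, n = 3; log2 0.58, adjusted p = 0.0116). MID2, a microtubule-bound ligase, fell in KO from 32.7 ± 2.14 to 19.2 ± 1.13 CPM (log2 -0.77, adjusted p = 0.00159) and gave 0.51 in OE (adjusted p = 0.0540). MID1 gave log2 changes of 0.23 in KO and -0.14 in OE, CMYA5 gave 0.12 and -0.42, and neither passed. MEFV was not among the genes tested.

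Of 14 ubiquitin-conjugating E2 enzymes that serve TRIM ligases, 2 were higher in OE, 14.3% called. Of all tested genes 6.79% were called higher and 12.3% in either direction. UBE2L6, which also conjugates ISG15, rose from 119 ± 2.76 to 615 ± 1.34 CPM (log2 2.37, edgeR adjusted p = 1.98e-07), and UBE2E2 rose by a log2 change of 0.62 (adjusted p = 0.0124). In KO the share called was also 14.3%, with UBE2V2 and UBE2D1 lower, at -0.61 and -0.52 (edgeR adjusted p = 0.0148 and 0.0366). All tested genes gave 7.45% called lower and 12.6% in either direction. UBE2L6 was also higher in Lipo than in WT (log2 0.84, adjusted p = 0.00645).

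In the RNA sensing pathway on which TRIM25 acts, 14 genes were tested, and 5 were higher and 1 lower in OE, 42.9% called against 12.3% of all tested genes. IFIH1, the sensor MDA5, rose from 34.4 ± 3.37 to 312 ± 3.14 CPM (log2 3.18, edgeR adjusted p = 2.95e-09), and ZC3HAV1, the zinc finger antiviral protein, rose from 118 ± 3.83 to 471 ± 3.31 CPM (adjusted p = 1.26e-07). DHX58 rose by 2.46 and RIGI, the substrate of TRIM25, by 4.28 on the log2 scale (adjusted p = 3.23e-07 and 3.51e-04). In KO 14.3% were called, with RNF135 and DHX58 lower, at -0.67 and -0.51 (edgeR adjusted p = 0.00862 and 0.0387). All tested genes gave 7.45% called lower and 12.6% in either direction. Of the repressor partners of TRIM28, 14 were tested and 3 were lower in OE, 21.4% called. All tested genes gave 5.53% called lower and 12.3% in either direction. CBX5, the heterochromatin protein HP1 alpha, fell from 310.0 ± 8.11 to 167 ± 0.0905 CPM (log2 -0.89, adjusted p = 4.20e-04), HDAC1 gave -0.55 and CHD3 -0.47 (adjusted p = 0.0140 and 0.0328). SETDB1, the histone methyltransferase recruited by TRIM28, and MORC2 were higher in KO, at 0.47 and 0.33 (edgeR adjusted p = 0.0430 and 0.0490). The share called was 14.3%, with 5.13% of all tested genes called higher and 12.6% in either direction.

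Interferon reference genes were read beside these lists as background to the antiviral members. All 11 tested of 12 listed were higher in OE, with a median log2 change of 6.50, against 6.79% of all tested genes called higher. In KO 3 were higher (IFIT1, IFIT2 and IFIT3) and 2 lower (OAS1 and IFI6), 45.5% called. Of all tested genes 5.13% were called higher and 7.45% lower in KO. IRF9, the listed gene not tested, had 0 reads in every library. That count is not read as absence of its transcript, and its cause was not tested. By this measure TRIM22 at 6.53 lay near the median of those genes and TRIM21 at 2.51 below it.

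**Figure D4:**
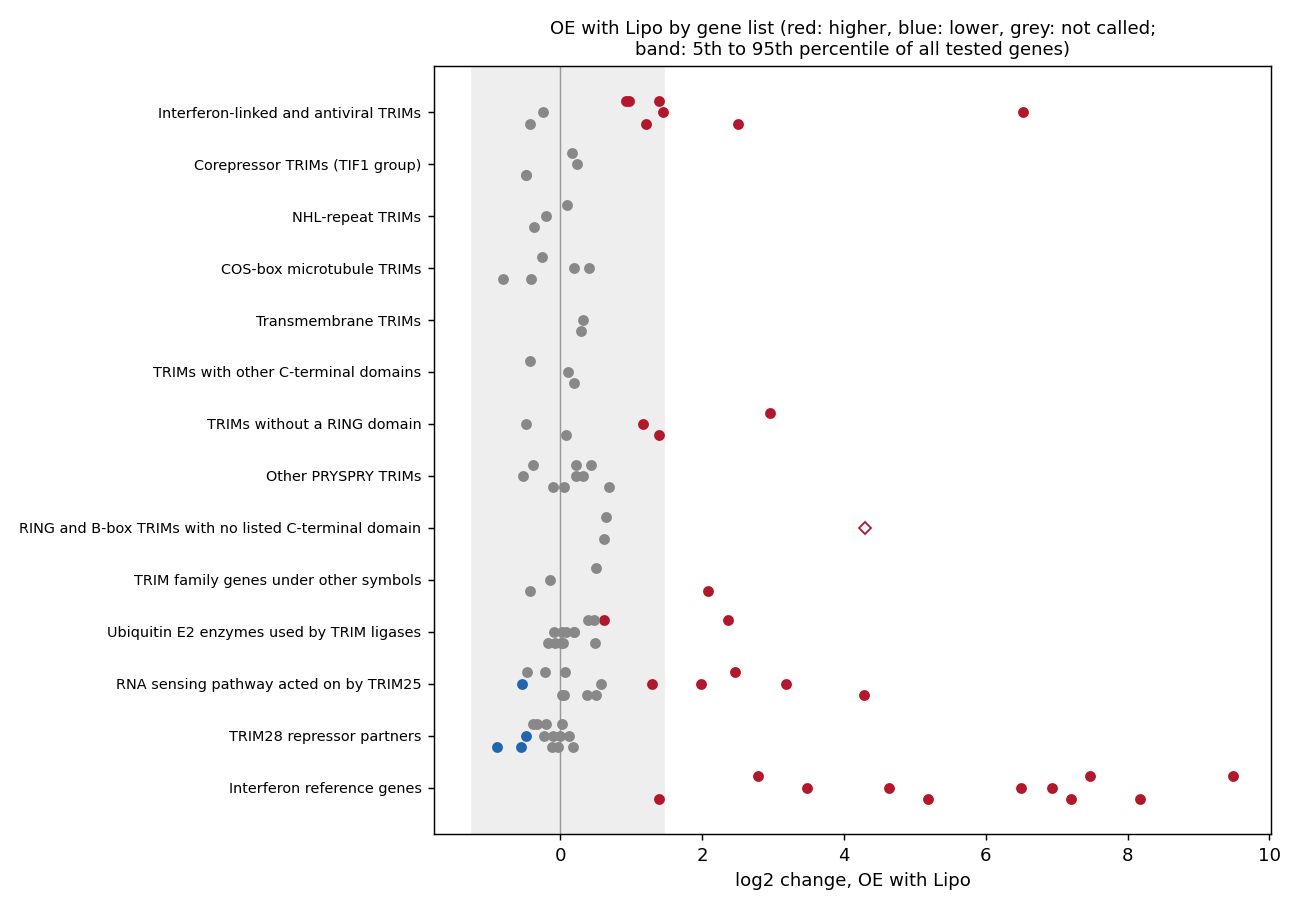
Fitted log2 change in OE with Lipo for every tested gene of the role lists, the partner lists and the interferon reference genes, 1 point per gene, red for called higher, blue for called lower and grey for not called at adjusted p under 0.05, with an open diamond for the TRIM31 bound and a band over the central 5 to 95 percentiles of all tested genes. The antiviral members have a median of 1.22 and the interferon reference genes one of 6.50, while the corepressor members have a median of -0.15.

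The 26 TRIM symbols left out had few reads or none. Of these, 6 lie at chr6:28000000-34000000, a stretch whose bounds were set after the counts were seen. TRIM27 had 0 reads over all 10 libraries, TRIM39 1 and TRIM26 14. Of 200 protein-coding genes in that stretch, 61% had no read and 15% were tested, against 19.3% and 62.5% of the 838 on the rest of chromosome 6. Genes used in every cell were low there too, with 2 reads for TUBB and 0 for GNL1 over all libraries. Low counts in the stretch, those of TRIM31 included, are therefore not read as levels, and the cause was not tested.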

How the data were processed

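The authors deposited 1 table of raw read counts per gene, not normalised. HISAT2 2.1.0, featureCounts, FastQC, edgeR and the GRCh38 build appear in the submitters' processing notes, with no role or order. Whether counting used strand is not given in the sources used here. Of 62710 entries, 1 without values was left out, and 2 columns that matched no sample were not used. Counts were analysed in R 4.3.3 with edgeR 4.0.16. After filterByExpr on the 4 groups and TMM scaling, all 10 libraries entered 1 quasi-likelihood fit (robust), with 6 residual degrees of freedom. Tests were two-sided, with Benjamini-Hochberg adjustment over 15832 genes and a threshold of 0.05. The script was tested on simulated data. SE is the log2 change divided by the square root of F, and floors cover counting error only. Exon lengths, positions and overlaps came from GENCODE on GRCh38. The rule names members called in KO, OE or Lipo, TRIM28, TRIM24, TRIM33, TRIM25, TRIM21, TRIM5 and TRIM22, the 5 highest per length, family genes under other symbols, and up to 4 called genes per other list. Other members and the promoter motifs were picked after values were seen. Members and lists were chosen with earlier results of these data known. Alternatives tried were DESeq2 1.42.0, RLE scaling, library size alone, other filters, other controls, only the groups compared, a replicate block, and each library left out.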

Additional observations from a re-analysis of the deposited data

How the results depend on the processing

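Of 459 refits of the members called, 428 kept direction and call, 31 lost the call and 0 reversed. TRIM5, TRIM14, TRIM21, TRIM22, TRIM25, TRIM29, TRIM38 and TRIM56 kept their OE calls in all 20 alternatives. For OE with Lipo (10 members called), the count was 20 with only the groups compared, 19 with WT as control, and 8 to 13 with 1 library left out. For KO with WT (1 called), it was 2 with DESeq2, 2 without a filter on low counts, 2 with all 5 wild-type controls, and 1 to 5 with 1 library left out. For Lipo with WT (2 called), it was 1 with only the groups compared and 0 to 3 with 1 library left out, 0 without Lipo 2 or Lipo 3. DESeq2 called 3 there. The difference between the effects (12 called) gave 8 to 15. The number of all genes called shifted as well, for OE with Lipo from 1950 in the main fit to 2282 with DESeq2. The cause of these shifts was not tested. With the replicate number as a block, KO with WT gave 5 in a fit of WT and KO and 3 in a fit of all 10 libraries, and Lipo with WT gave 11 in a fit of replicates 2 and 3 of both groups. The block over all 10 libraries, added for the other comparisons after the data had been seen, gave 15 for OE with Lipo, 2 for Lipo with WT and 16 for the difference between the effects. With its group mean taken from each log2 CPM value, same-numbered WT and KO libraries correlated at 0.328, 0.0577 and 0.185 for numbers 1, 2 and 3. The highest correlation of each WT library with a KO library of another number was -0.0581, 0.0920 and 0.0103. Numbers 1 and 3 thus matched best within their number and number 2 did not. Whether the numbers pair samples was not settled, and the main fit used no block. OE and Lipo share only number 2, so they could not be paired in a fit of their own. TRIM17 rested on 40 WT reads.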
